A study of Rattus norvegicus with 32 samples.

Results

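Adult male rats whose dams had been iron-deficient and had received extra choline in pregnancy (the FIDch group, formerly iron-deficient with choline) were compared with male rats that had been iron-sufficient throughout and had received no extra choline (IS, the control). The comparison was set by the labels, as 4 FIDch and 4 IS males of sequencing batch I, so it covered 8 of the 32 rats of the series and all genes of their count table. All rats were Sprague-Dawley and were 65 days old (P65), and RNA was taken from the whole hippocampus. FIDch dams ate an iron-deficient diet from early gestation to the end of the first postnatal week and an iron-sufficient diet afterwards, with choline added to the diet for part of mid to late gestation. IS dams ate the iron-sufficient diet with its standard choline content, and the offspring of both groups were iron-replete when the tissue was taken. The labels call the FIDch diet IDch. Each litter gave a single male, so the spread within a group includes the spread between litters. Because FIDch rats differed from IS rats both in early iron supply and in choline, the separate parts of iron and choline cannot be told apart in this comparison. The other male groups, FID (formerly iron-deficient without choline) and ISch (iron-sufficient with choline), also had 4 rats each, and their levels are given below for single genes as description only.

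Iron is the metal at the centre of heme and iron-sulfur clusters, on which the respiratory chain of mitochondria depends, and it is a cofactor of enzymes that make monoamine transmitters and remove methyl groups from DNA and histones. The hippocampus, which serves spatial and declarative memory, grows and wires up rapidly around birth in the rat, and its energy demand at that time is high. Choline is the precursor of acetylcholine and of phosphatidylcholine, and through betaine it supplies methyl groups to the one-carbon cycle. The question of the comparison was which transcripts differed in adulthood, long after iron had been restored.

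The 8 libraries held between 3515806 and 9007294 counts on genes, and FIDch replicate 2 was the smallest. A count of 0 allows up to 3 counts, which is 0.853 CPM (counts scaled to a common library total) in that library and 0.333 to 0.451 CPM in the other 7, for counting error only. On the first principal component of the 16 male libraries, with 20.2% of the variance, IS replicate 1 and FIDch replicate 2 stood at the ends of the 8 libraries, at -0.647 and 0.416. Summed levels of the marker lists overlapped between the groups for astrocytes, oligodendrocytes and their precursors, microglia, vessels, excitatory neurons, interneurons, the hippocampal fields, meninges, blood and neighbouring brain regions. Excitatory neuron markers, for example, summed to 5337 to 5726 CPM in IS and 5207 to 5880 CPM in FIDch. Choroid plexus markers summed to 4.13 to 6.96 CPM in IS and 3.57 to 5.64 CPM in FIDch. In bulk tissue, fewer cells of a type and less RNA per cell cannot be told apart.

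Differences between the groups were mostly small. Of 13693 genes tested, 838 (6.12%) met the criterion of the study, an absolute log2 fold change over 0.2 with an unadjusted p under 0.05, and these are the genes called higher or lower below. Among them, 398 (2.91% of the genes tested) were higher and 440 (3.21%) were lower in FIDch. The median absolute log2 fold change of the 838 genes was 0.35, 593 of them changed by less than 0.5 and 49 by more than 1. Of these 838 genes, 402 (2.94% of the genes tested) had no overlap between the 4 FIDch and the 4 IS values, as did 5.32% of all genes tested whether called or not. After Benjamini-Hochberg adjustment over all genes in edgeR's quasi-likelihood test, 18 genes (0.131%) had an adjusted p under 0.05, 6 higher (0.0438%) and 12 lower (0.0876%). Without any 1 of the 8 libraries, the criterion was met by 681 to 1267 genes, the most without IS replicate 3. An adjusted p under 0.05 was then found for 5 genes without IS replicate 2, 8 without IS replicate 4, 4 without FIDch replicate 1, 4 without FIDch replicate 3 and 7 without FIDch replicate 4. The number was 25 without IS replicate 1, 23 without IS replicate 3 and 19 without FIDch replicate 2.

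Of the 18 genes with an adjusted p under 0.05, 7 had a gene symbol, 5 had a LOC number and 6 a clone name. The symbols included the ribosomal protein genes Rps9 (lower) and Rpl12 (higher). Mt-atp8, a subunit of ATP synthase, and Cox6b1, a subunit of cytochrome c oxidase, were both higher. All 18 separated the 4 FIDch rats from the 4 IS rats without overlap, which is a description, since they were chosen by their p in the same rats. The genes LOC680121, Rps9, LOC100365810 and LOC100360841 kept an adjusted p under 0.05 without any 1 library, and the other 14 lost it in at least 1 of these 8 fits.

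Rps9 (ENSRNOG00000058909), which encodes a protein of the small ribosomal subunit, fell most of the genes named from the male fit. It stood at 11.2, 8.63, 23.0 and 15.9 CPM in the IS rats and at 2.02, 1.13, 1.10 and 1.04 CPM in the FIDch rats. All 4 IS rats were above all FIDch rats, and the log2 fold change was -3.41 ± 0.36 (SE), with an edgeR adjusted p of 0.0020. The FID rats ranged from 0.830 to 8.69 CPM and the ISch rats from 0.724 to 9.50 CPM, so those groups each held rats near the FIDch level. In the RefSeq annotation of assembly GRCr8, Rps9 overlaps Pirb, a receptor gene of the immune system, and reads of ribosomal protein genes can also be shared with processed copies elsewhere.

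Mt-atp8 (ENSRNOG00000033299), the mitochondrially encoded ATP synthase subunit 8, was higher in FIDch. Its level was 522, 549, 549 and 481 CPM in IS and 755, 639, 755 and 745 CPM in FIDch. The lowest FIDch rat, replicate 2, was still above the highest IS rat. The log2 fold change was 0.47 ± 0.07 (SE), with an edgeR adjusted p of 0.020. The FID rats were at 476 to 526 CPM, in the range of IS or just below it, and the ISch rats at 640 to 715 CPM, within the range of FIDch.

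Cox6b1 (ENSRNOG00000034161), a nuclear-encoded subunit of cytochrome c oxidase, stood at 33.9, 29.5, 27.5 and 31.0 CPM in IS and 48.4, 49.1, 48.8 and 39.0 CPM in FIDch (log2 fold change 0.60 ± 0.10, SE). FID rats were at 29.4 to 32.0 CPM and ISch rats at 40.7 to 46.0 CPM. A second entry of the table has the same symbol, so reads may be split between copies and the direction of Cox6b1 as a whole is uncertain. The entry given here is not counted in the list of complexes II to V below. No member of that list had an adjusted p under 0.05, and its highest log2 fold change was 0.27. Rpl12 (ENSRNOG00000016220), of the large ribosomal subunit, stood at 25.4, 23.7, 21.5 and 26.0 CPM in IS and at 35.2, 35.0, 35.4 and 34.2 CPM in FIDch. The 4 FIDch rats were tightly grouped above every IS rat, and the log2 fold change was 0.53 ± 0.09 (SE), with an edgeR adjusted p of 0.037. FID rats, at 28.6 to 33.1 CPM, and ISch rats, at 25.9 to 33.2 CPM, were below every FIDch rat.

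The other symbols with an adjusted p were Snurf, Rec114 and Ccdc152, each of which lies over another gene in the annotation. Snurf, the reading frame upstream of the splicing factor gene Snrpn in an imprinted locus, stood at 74.5, 80.8, 61.4 and 68.2 CPM in IS and 51.2, 39.8, 42.2 and 46.1 CPM in FIDch. FID rats were at 65.5 to 72.2 CPM and ISch rats at 40.7 to 58.9 CPM. Rec114, known for its part in meiotic recombination, overlaps Nptn and fell from 9.83 to 12.03 CPM in IS to 5.35 to 6.73 CPM in FIDch, with ISch at 6.37 to 8.00 CPM and FID at 8.34 to 13.2 CPM. Ccdc152 overlaps Selenop, which encodes the selenium carrier selenoprotein P, and stood at 21.8 to 27.3 CPM in IS and 12.3 to 16.1 CPM in FIDch. For Ccdc152 the ISch rats, at 16.8 to 23.9 CPM, and the FID rats, at 18.8 to 24.5 CPM, were both above the FIDch rats. The library kit named in the sources does not mark strand, so reads of these genes and of the genes they overlap may be mixed.

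**Figure D1:**
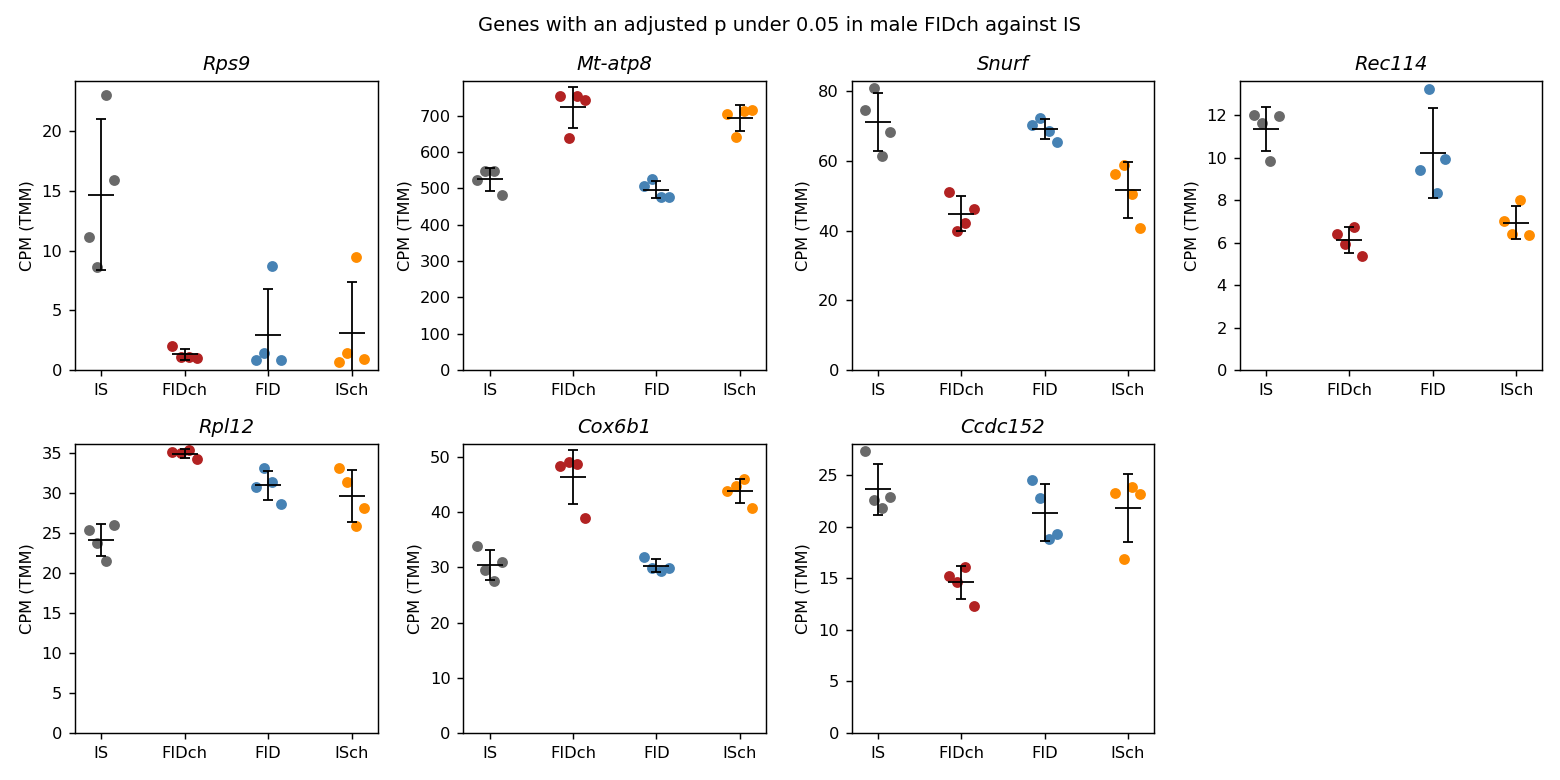
Normalized levels (CPM, linear axes from 0) of the 7 genes with a symbol and an adjusted p under 0.05, in each male rat of the groups IS, FIDch, FID and ISch. Points are rats, bars are the mean and SD of 4 rats, and in each panel all FIDch points lie on one side of all IS points. The lower arm of the SD bar is not drawn below 0 for Rps9.

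Among the 11 unnamed loci, LOC680121 rose and had the smallest p of all genes tested. It stood at 31.2, 26.6, 28.1 and 28.6 CPM in IS and 51.3, 55.0, 54.4 and 48.9 CPM in FIDch (log2 fold change 0.87 ± 0.08, SE, edgeR adjusted p 0.0014). LOC100365810, annotated as a pseudogene in RefSeq, fell from 18.4 to 26.9 CPM in IS to 8.18 to 9.83 CPM in FIDch. LOC100360841 fell from 11.5 to 19.6 CPM to 3.39 to 5.04 CPM. A further locus, AABR07072078.1, matched the RefSeq pseudogene of Rpl37a and stood at 7.53 to 12.03 CPM in IS and 2.26 to 4.29 CPM in FIDch. For these 4 loci the ISch rats lay close to the FIDch rats, at 44.1 to 51.6, 7.10 to 11.5, 3.24 to 6.29 and 2.63 to 3.80 CPM. The FID rats stood at 30.6 to 38.3, 14.98 to 26.6, 10.1 to 14.8 and 7.67 to 11.0 CPM.

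Several of these 18 genes were nearly absent from the libraries of batch II, which held the females. The mean level in male IS rats was at least 10-fold that in female IS rats (with 0.1 CPM added to both) for 10 of the 18 genes, against 2.65% of all genes tested and 6.32% of the 838 genes at the criterion. This threshold was chosen after the values had been seen. Snurf was at 0.672 to 1.01 CPM and Ccdc152 at 0.042 to 0.132 CPM in the female IS rats. Batch II was extracted with another RNA kit, and sex, kit and batch cannot be told apart. Whether the male and female tables were counted with the same strand setting is not given in the sources used here, so levels of overlapping genes may not be comparable between them. The part of these level differences in the results was not tested.

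The largest changes without overlap between the groups, among genes with a symbol and at least 1 CPM on average, included more genes of low level. Among those that fell, Echs1, a mitochondrial enzyme of fatty acid oxidation, stood at 4.71, 7.77, 8.01 and 4.43 CPM in IS and at 2.52, 1.98, 2.76 and 2.83 CPM in FIDch (log2 fold change -1.25 ± 0.25, SE, edgeR adjusted p 0.10). Steap4, a metalloreductase that reduces iron and copper, stood at 1.49 to 2.87 CPM in IS and 0.756 to 1.41 CPM in FIDch (log2 fold change -1.14). Pygl, the liver form of glycogen phosphorylase, stood at 2.80 to 5.44 and 2.08 to 2.43 CPM (log2 fold change -0.86). The remaining 7 of the 10 lowest were Rps9 and Rec114, described above, Zbtb8a, the cohesin subunit gene Rad21l1, Pcdhb10, Rpl36a and Olfm4. Olfm4 had a log2 fold change of -0.82 without IS replicate 4 and -0.80 without FIDch replicate 1, and no longer met the criterion in either fit.

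Genes of motile cilia stood among the 10 that rose most. Tmem212 and Drc7, the latter a part of the dynein regulatory complex, and Dnah11, a heavy chain of axonemal dynein, had log2 fold changes of 1.18, 0.84 and 0.89. Dnah11 stood at 2.23, 2.73, 2.87 and 2.36 CPM in IS and 3.66, 5.36, 5.41 and 4.61 CPM in FIDch. The other 7 were Zpbp2, the mitotic kinesin gene Kifc1, the transcription factor gene Myb, Clca1, Map3k7cl, the type VII collagen gene Col7a1 and the matrix protein gene Npnt, with log2 fold changes from 0.79 to 1.12.

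Genes of ependymal and motile cilia were therefore listed after these values had been seen, so their count is a description only. Of 21 list members tested, 7 were higher (33.3%, against 2.91% of all genes), none was lower, and all 21 fitted values were above 0 (53.1% of all genes were), with a median log2 fold change of 0.29 against 0.01 over all genes. Ak7, an adenylate kinase of cilia, stood at 2.23, 3.31, 1.81 and 2.21 CPM in IS and 5.29, 2.82, 6.07 and 4.61 CPM in FIDch (log2 fold change 1.04). Dnah12 stood at 8.34 to 11.5 CPM in IS and 11.9 to 14.4 CPM in FIDch, with no overlap (log2 fold change 0.37). Dnah6 and Ccdc153 were also called higher. The rest of the 7 were Tmem212, Drc7 and Dnah11, whose values had prompted the list, so part of this count was fixed in advance. The summed level of the list ran from 198 to 246 CPM in IS and from 225 to 293 CPM in FIDch. It ran from 142 to 266 CPM in FID and from 226 to 295 CPM in ISch, so the ISch rats stood at the FIDch level. Without any 1 library, 4 to 9 members were called. The count was 4 without IS replicate 2 and 4 without FIDch replicate 3. In females the median was -0.07, with no member higher and 1 lower.

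Of the 13 protein genes encoded by mitochondrial DNA, 7 were lower in FIDch and 1, Mt-atp8, was higher (61.5% at the criterion, against 6.12% of all genes), and the median log2 fold change was -0.21. Most of these genes moved together in single libraries, as described below, so their calls are not independent. Those called lower were the complex I subunits Mt-nd2, Mt-nd3, Mt-nd4, Mt-nd5 and Mt-nd6, the cytochrome c oxidase subunit Mt-co3 and the ATP synthase subunit Mt-atp6. Mt-nd3 stood at 467, 401, 452 and 350 CPM in IS and 328, 269, 323 and 330 CPM in FIDch, with no overlap (log2 fold change -0.41 ± 0.09, SE, edgeR adjusted p 0.19). Mt-co3 stood at 10487, 9508, 9850 and 9292 CPM in IS and 8465, 6266, 8372 and 8475 CPM in FIDch, again with every FIDch rat below every IS rat. Mt-atp6 fell by 0.21 on the log2 scale while Mt-atp8, whose reading frame overlaps it in mammals, rose by 0.47.

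For 10 of the 13 genes FIDch replicate 2 was the lowest FIDch rat. There Mt-nd2 was at 5199 CPM, against 7463 to 8081 CPM in the other FIDch rats and 7914 to 8909 CPM in IS. Without that library 4 mitochondrially encoded genes were lower and 1 higher, with a median of -0.14, and without IS replicate 3 the counts were also 4 and 1. All 13 genes together took 6.85 to 7.70% of the counts in IS, 5.81 to 6.87% in FIDch, 6.72 to 7.17% in FID and 5.95 to 6.65% in ISch. The IS and FIDch ranges met only at their ends. In females none of the 13 was higher and 2 were lower, with a median log2 fold change of -0.08. Mt-nd6, which lies on the strand opposite to the other 12 genes, was at 1216 to 1474 CPM in male IS and at 27.0 to 32.8 CPM in female IS. Sex, kit and batch cannot be told apart in that difference of levels, and how strand was treated in counting each table is not given in the sources used here. Whether the libraries of both batches lack strand information was not tested.

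**Figure D2:**
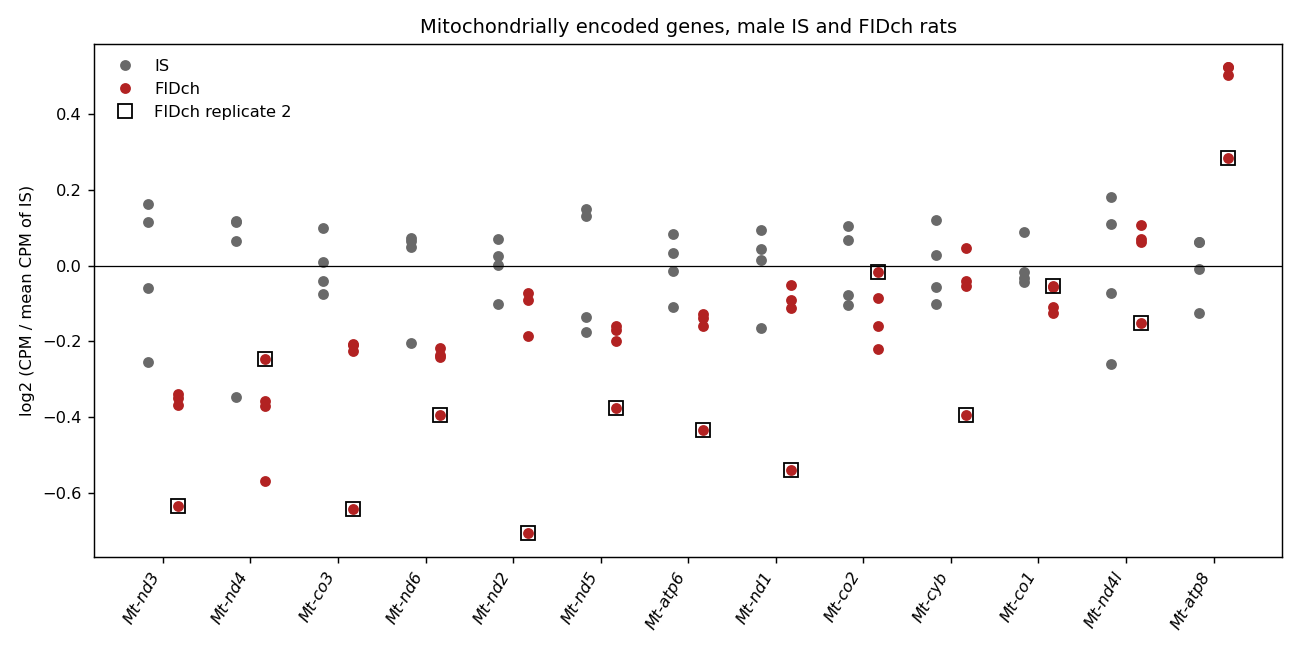
Level of each mitochondrially encoded protein gene in each IS and FIDch male, as the log2 ratio to the mean CPM of the 4 IS rats. Squares mark FIDch replicate 2, which is the lowest FIDch rat for 10 of the 13 genes and the highest for Mt-nd4, Mt-co1 and Mt-co2. Mt-atp8 alone has all 4 FIDch rats above IS.

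Nuclear genes of the respiratory chain and ATP synthase changed seldom. Of 35 complex I subunits 1 was lower, Ndufc1, at 31.6 to 46.0 CPM in IS and 26.9 to 35.3 CPM in FIDch. It lost the criterion in 5 of the 8 fits without 1 library. Without IS replicate 1, 5 complex I genes were higher and none lower, and the median turned from -0.04 to 0.05. Without IS replicate 3, 2 were lower. Of 38 genes of complexes II to V, 2 were lower and 1 higher (7.89%). Uqcrc2, a core protein of complex III, stood at 386, 373, 315 and 332 CPM in IS and 294, 296, 309 and 299 CPM in FIDch (log2 fold change -0.23, and -0.18 without IS replicate 1, when it no longer met the criterion). Uqcrb, of the same complex, fell by 0.31 on the log2 scale, with IS at 40.1 to 52.3 CPM and FIDch at 33.2 to 39.7 CPM. Atp5me, of ATP synthase, was higher by 0.27 but lost the criterion in 5 of the 8 fits. Without IS replicate 3, 7 genes of complexes II to V were lower and none higher, and without IS replicate 1, 1 was lower and 3 were higher.

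Cytosolic ribosomal protein genes changed in both directions, with 4 higher and 6 lower of 68 tested (14.7%, against 6.12% of all genes). Their median log2 fold change was 0.02. Those higher included Rpl12, Rpl32 and Rpl41, and Rpl17, Rpl21, Rpl36a, Rps9, Rps27 and Rps27a were lower. Rpl21 stood at 133, 111, 108 and 114 CPM in IS and 91.1, 98.2, 84.8 and 81.4 CPM in FIDch, without overlap (log2 fold change -0.40 ± 0.08, SE). The table has 4 entries of this symbol, and another of them, ENSRNOG00000032803, was called in the opposite direction, higher by 0.68, so the direction of Rpl21 is uncertain. Rpl17 stood at 134, 112, 62.0 and 82.3 CPM in IS and 47.0, 35.0, 75.7 and 49.7 CPM in FIDch, where FIDch replicate 3 reached into the IS range. The direction of this list depended on single IS rats. Without IS replicate 1, whose summed ribosomal level of 7497 CPM was the highest of the 8 libraries, 15 were higher and 5 lower. Without IS replicate 3, whose sum of 5455 CPM was the lowest, 3 were higher and 14 lower.

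Transmitter release genes were at the background share, with 3 of 49 called (6.12%). Snap25, a SNARE protein of the presynaptic membrane that drives vesicle fusion, stood at 2487, 2594, 2386 and 2367 CPM in IS and at 2038, 2082, 2097 and 2059 CPM in FIDch. The 4 FIDch rats were tightly grouped below every IS rat, and the log2 fold change was -0.25 ± 0.05 (SE), with an edgeR adjusted p of 0.11. The FID rats were at 2228 to 2694 CPM and the ISch rats at 2163 to 2347 CPM, both above FIDch. Sypl1, a relative of synaptophysin, was lower by 0.30 on the log2 scale without overlap. The calcium sensor gene Doc2b was higher by 0.22, a call that was lost in 6 of the 8 fits without 1 library. Of this list, 3 were higher and 2 lower without IS replicate 3, and 2 higher and 3 lower without FIDch replicate 3.

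Plasticity kinases and phosphatases had 2 of 47 genes lower and none higher (4.26%). Ppp3r1, the regulatory subunit of the calcium-dependent phosphatase calcineurin, stood at 919, 941, 913 and 897 CPM in IS and 779, 810, 801 and 734 CPM in FIDch (log2 fold change -0.23 ± 0.05, SE). FID rats were at 882 to 982 CPM and ISch rats at 822 to 877 CPM, above every FIDch rat. Camk2g, a subunit of calcium/calmodulin-dependent kinase II, was at 7.07, 7.91, 20.7 and 17.4 CPM in IS and 6.51 to 7.73 CPM in FIDch, so its lower mean rested on IS replicates 3 and 4. The count was 4 lower without IS replicate 1 or FIDch replicate 3.

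Postsynaptic scaffolds had 2 of 30 genes higher and 1 lower (10%, against 6.12% of all genes). Dlgap4, which binds PSD-95 at excitatory synapses, stood at 156 to 177 CPM in IS and 181 to 214 CPM in FIDch without overlap (log2 fold change 0.24, and 0.18 without FIDch replicate 1, when it missed the criterion). Shank2 was higher by 0.35 and Homer3 lower by 0.21 on the log2 scale, and each lost the criterion in 4 of the 8 fits without 1 library. Of this list, 25 members had a fitted value above 0 and 5 below, with a median of 0.11. Without FIDch replicate 1 or 4, 1 member was called, and without IS replicate 2, 4 were higher and 1 lower.

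Receptors and channels gave few calls. Grm4, a presynaptic metabotropic glutamate receptor, was the only one of 7 metabotropic receptors called, at 9.30, 13.8, 10.6 and 11.95 CPM in IS and 7.31, 6.21, 7.73 and 7.88 CPM in FIDch (log2 fold change -0.62 ± 0.15, SE). Of 16 AMPA, NMDA, kainate and delta receptor subunits, 1 was higher, the NMDA receptor subunit Grin2d (log2 fold change 0.29, lost in 5 of the 8 fits). None of 12 GABA-A receptor subunits met the criterion, with log2 fold changes from -0.23 to 0.33. This rested on single libraries, as 4 were lower without IS replicate 1. Removing FIDch replicate 3 gave 2 lower, and removing either IS replicate 3 or FIDch replicate 4 gave 1. Among 23 monoamine and histamine receptors, the serotonin receptor Htr1b was higher, at 7.94, 13.8, 13.0 and 12.7 CPM in IS and 15.3, 15.2, 15.1 and 18.1 CPM in FIDch. Its log2 fold change was 0.44, and 0.37 without FIDch replicate 4, when it missed the criterion. FID rats, at 16.2 to 20.1 CPM, and ISch rats, at 14.6 to 18.3 CPM, stood at the FIDch level. In this list 3 genes were higher without IS replicate 4 and 2 without FIDch replicate 2, and 2 metabotropic receptors were lower without IS replicate 1.

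Among 47 potassium channel genes, the leak channel genes Kcnk4 and Kcnk10 were higher and the channel-interacting protein gene Kcnip1 was lower (6.38%). Kcnk4 stood at 16.0 to 19.4 CPM in IS and 19.5 to 23.1 CPM in FIDch (log2 fold change 0.26). Kcnip1 stood at 25.3, 20.7, 12.7 and 18.2 CPM in IS and 12.5 to 15.01 CPM in FIDch (log2 fold change -0.51). Kcnk4 lost the criterion in 4 and Kcnk10 in 5 of the 8 fits without 1 library. Kcnf1 (log2 fold change 0.25) and Kcnj5 (-0.72), not counted in this list, were also called. The sodium channel gene Scn3a, expressed mainly early in development, was the 1 gene called among 23 calcium and sodium channels (log2 fold change 0.35, lost in 4 of the 8 fits). Without IS replicate 3, 4 genes of that list were higher, and 2 without FIDch replicate 3. Without IS replicate 1, 1 potassium channel gene was higher and 4 were lower, and without FIDch replicate 1, 1 was lower.

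Of 15 stress hormone response genes, 3 were higher and none was lower (20%, against 6.12% of all genes). Fitted values were above 0 for 9 and below 0 for 6 of them, with a median of 0.10. Per1, also a core repressor of the circadian clock, stood at 54.9, 54.9, 64.3 and 71.0 CPM in IS and 81.8, 93.1, 70.2 and 76.7 CPM in FIDch, where only FIDch replicate 3 fell below the highest IS rat. Its log2 fold change was 0.39 ± 0.10 (SE). Sgk1, a kinase that glucocorticoids induce, stood at 58.4, 79.4, 63.1 and 66.4 CPM in IS and 100.4, 120.5, 71.8 and 67.8 CPM in FIDch, so FIDch replicates 1 and 2 were high and the other 2 were in the IS range. Klf9, a transcription factor gene induced by the same hormones, was higher by 0.23. Only 1 member of the list was called without IS replicate 1, without FIDch replicate 1 or without FIDch replicate 2. Of 21 clock genes, Per1 alone met the criterion, and 2 were called without IS replicate 4, FIDch replicate 2 or FIDch replicate 4.

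Activity-induced genes had Per1 higher and Ier5 lower of 34 tested (5.88%). Without IS replicate 4, 8 were higher and 1 lower, and without IS replicate 1 or FIDch replicate 4, 2 were higher and 2 lower. Bdnf, which encodes a growth factor for neurons and synapses, had a log2 fold change of -0.21 ± 0.10 (SE) and did not meet the criterion, with IS at 43.1 to 59.2 CPM and FIDch at 38.8 to 45.3 CPM. None of 10 neurotrophin and receptor genes met it, against 1 higher and 2 lower without IS replicate 3 and 1 called without IS replicate 1, 2 or 4 or FIDch replicate 1 or 3. Of 19 neuropeptide genes, 2 were lower (10.5%, against 6.12% of all genes called), and 1 without FIDch replicate 1. Cartpt, the precursor of the CART peptides, stood at 4.59, 4.03, 3.18 and 2.95 CPM in IS and 1.51, 3.95, 0.883 and 0.744 CPM in FIDch (log2 fold change -1.31), with FIDch replicate 2 in the IS range. Nxph1, a secreted ligand of neurexins, was lower by 0.23 without overlap, and missed the criterion without IS replicate 1, at -0.19, and without FIDch replicate 1, at -0.20.

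Of 41 regulators of actin and microtubules, 3 were lower and none was higher (7.32%), all of them acting on actin. The count was 7 lower without IS replicate 3, 5 lower without FIDch replicate 1, and 5 lower and 1 higher without FIDch replicate 3. Marcks, a substrate of protein kinase C that binds actin at the membrane, stood at 108, 96.1, 105 and 110 CPM in IS and 85.1, 79.3, 92.7 and 79.3 CPM in FIDch (log2 fold change -0.31 ± 0.07, SE). Capza2, which caps actin filaments, stood at 372, 388, 369 and 385 CPM in IS and 316, 345, 326 and 309 CPM in FIDch (log2 fold change -0.22). The muscle form of cofilin, Cfl2, which severs filaments, was lower by 0.24, and by 0.20 without FIDch replicate 4, when it missed the criterion. In these 3 genes the groups did not overlap.

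Chaperone genes had 2 of 39 lower (5.13%). Hsp90aa1, a stress-inducible form of HSP90, stood at 14.6, 19.6, 20.4 and 16.8 CPM in IS and 14.8, 8.18, 11.4 and 9.22 CPM in FIDch (log2 fold change -0.67). FID rats were at 21.6 to 36.5 CPM and ISch rats at 12.1 to 21.2 CPM. Hspb8, a small heat shock protein, was lower by 0.28 and lost the criterion in 6 of the 8 fits without 1 library. Of 25 genes of the hypoxia response, the collagen prolyl hydroxylase gene P4ha2 was higher (4%, lost in 6 of the 8 fits). Without IS replicate 3, 4 chaperone genes were lower and 3 hypoxia genes higher. The chaperone count was 1 without IS replicate 2 or FIDch replicate 1, and that of hypoxia genes was 2 without IS replicate 1.

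**Figure D3:**
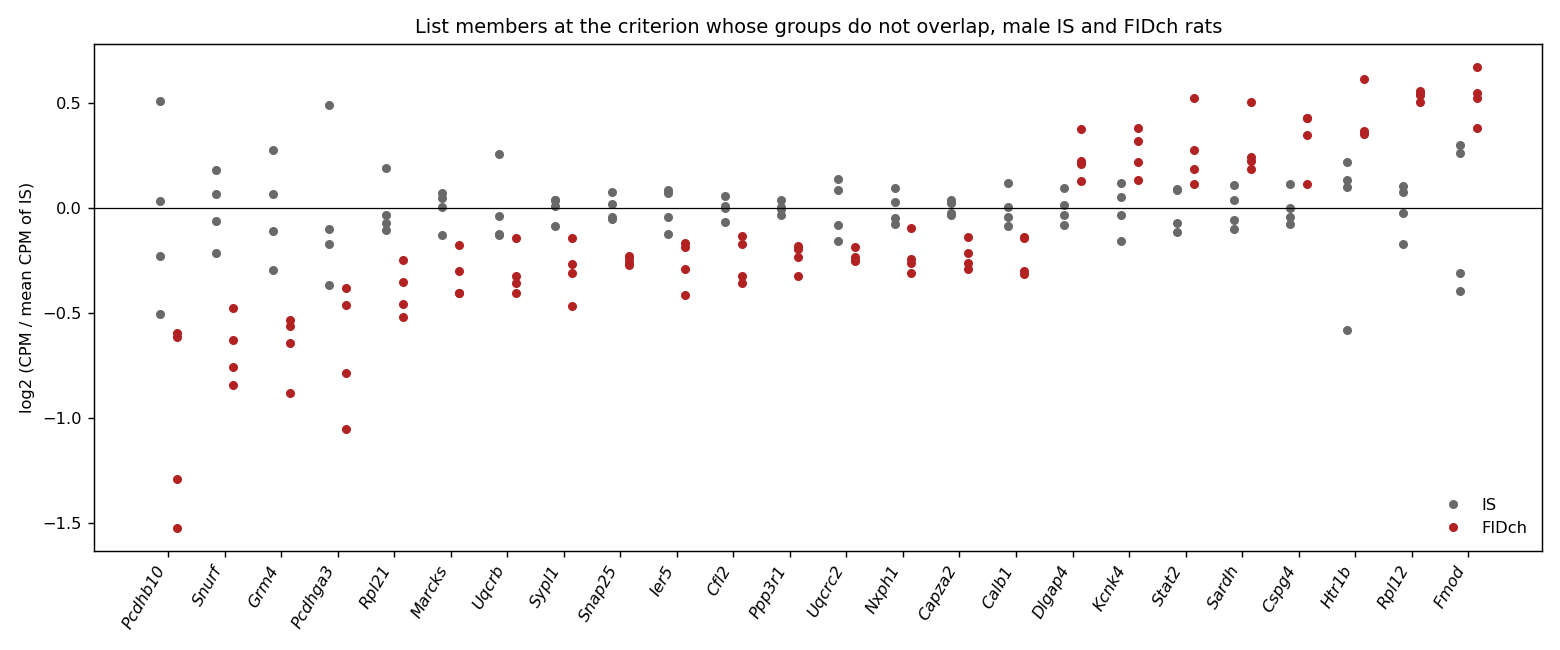
Members of the gene lists that met the criterion without overlap between the groups, up to 4 per list, as the log2 ratio of each rat's CPM to the mean of the 4 IS rats. Mitochondrially encoded genes and Rps9 are left out. The FIDch points of the 16 genes at the left lie below and those of the 8 at the right above all IS points of the same gene, most of them by less than 0.5.

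Immune genes moved both ways. In the interferon response, 2 of 23 genes were higher and 1 was lower (13%, against 6.12% of all genes). Stat2, which carries the interferon signal to the nucleus, stood at 39.0 to 44.9 CPM in IS and 45.7 to 60.5 CPM in FIDch (log2 fold change 0.28, and 0.19 without FIDch replicate 4). Usp18, which dampens that signal, was higher by 0.76, with values from 1.69 to 5.80 CPM in FIDch. Ifi27 stood at 75.5, 69.6, 50.8 and 80.3 CPM in IS and 29.5, 86.9, 28.5 and 35.8 CPM in FIDch, where replicate 2 was the highest of all 8 rats and the other 3 were the lowest. Usp18 and Ifi27 each lost the criterion in 5 of the 8 fits without 1 library. Without FIDch replicate 4 none of the 23 genes met the criterion, and 1 did without IS replicate 2, IS replicate 4 or FIDch replicate 1. In females, 8 of 22 members tested were higher, against 4.16% of all genes, and none was lower. The female median log2 fold change of the list was 0.20. Of 16 antigen presentation genes, RT1-N3 was higher and RT1-DMa lower, and each lost the criterion in 5 of the 8 fits.

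Clustered protocadherins, adhesion proteins that give neurons their surface identity, had 5 of 27 genes higher and 2 lower. This was 25.9%, against 6.12% of all genes, with a median log2 fold change of 0.01. Pcdhb10 stood at 2.85, 3.45, 5.75 and 4.13 CPM in IS and 2.65, 1.41, 1.66 and 2.68 CPM in FIDch (log2 fold change -0.89). Pcdhga3 was lower by 0.61 without overlap, while its neighbours Pcdhga1, Pcdhga5, Pcdhgb7 and Pcdhgb8 were higher, by 1.01, 0.48, 0.35 and 0.41. Pcdhb3 was higher by 0.58. Pcdhga7, not counted in this list, was also called higher, by 0.29. Genes of the gamma cluster share their last exons, so their counts are not independent. Without IS replicate 1, without FIDch replicate 1 or without FIDch replicate 4, 2 members were higher and 2 lower.

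Genes of BMP and TGF-beta signalling had 2 of 33 higher and 2 lower (12.1%, against 6.12% of all genes). The BMP antagonist Chrd was higher by 0.25 and its ligand Bmp4 lower by 0.64 on the log2 scale, with overlapping groups. Inhbb, a subunit of activins and inhibins, was higher by 0.37, and Id3, a target of BMP signals, was lower by 0.28. Each of these 4 genes lost the criterion in 3 or 4 of the 8 fits without 1 library. Without IS replicate 2, FIDch replicate 1 or FIDch replicate 4, 1 member was called, and 2 without IS replicate 1 or 3. The imprinted genes had Snurf alone lower of 27 tested. Without FIDch replicate 3, 2 imprinted genes were higher and 3 lower, and 2 were called without IS replicate 2, 3 or 4 or FIDch replicate 1.

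The list of iron handling genes gave no call. Of its 25 genes tested, none met the criterion and none had an unadjusted p under 0.05 (7.89% of all genes did), with log2 fold changes from -0.78 to 0.29 and a median of -0.04. Without IS replicate 1, 2 of them were lower. The count was 1 lower without IS replicate 2, 3 or 4 and without FIDch replicate 1 or 3. Steap4, described above, is not on this list. Some other genes with a part in iron or heme use that are not on it were called. Slc11a1 and Cox15 were higher (log2 fold changes 0.62 and 0.36). Blvra, Glrx3 and Hccs were lower (-0.29, -0.25 and -0.24). These genes were picked after their values had been seen. Tfrc, the transferrin receptor, stood at 151 to 200 CPM in IS and 162 to 173 CPM in FIDch (log2 fold change -0.03 ± 0.08, SE). Fth1, the heavy chain of ferritin, stood at 961 to 1101 CPM in IS and 898 to 1070 CPM in FIDch. Differences smaller than their intervals remain possible for genes of low level such as the iron exporter Slc40a1, at 1.12 to 2.01 and 1.41 to 2.39 CPM.

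Genes of choline use had 1 higher and 1 lower of 18 (11.1%, against 6.12% of all genes). Cept1, which makes phosphatidylcholine and phosphatidylethanolamine in the final step of their synthesis, stood at 45.01, 49.5, 38.7 and 44.6 CPM in IS and 39.1, 35.0, 39.1 and 33.6 CPM in FIDch (log2 fold change -0.27). Sardh, which oxidizes sarcosine in mitochondria at the end of choline breakdown, stood at 14.4 to 16.6 CPM in IS and 17.5 to 21.8 CPM in FIDch (log2 fold change 0.30). Sardh missed the criterion without IS replicate 2, at 0.27, and without FIDch replicate 1, at 0.22. The high-affinity choline transporter gene Slc5a7 had a log2 fold change of -0.69 ± 0.33 (SE) and did not meet the criterion. None of 22 one-carbon cycle genes, 15 DNA methylation genes and 23 genes of H3K9 methylation met it, and neither did any of 28 genes of mTOR and translation control, 28 splicing genes, 11 acetylcholine receptors or 21 genes of amyloid and tau. Without IS replicate 3, 2 one-carbon cycle genes were higher and 1 lower, and 3 splicing genes were higher. Without FIDch replicate 3, 2 one-carbon cycle genes were lower and 2 splicing genes higher. Without IS replicate 4 or FIDch replicate 4, 1 one-carbon cycle gene was higher and 1 lower. Without IS replicate 1, 1 gene of mTOR and translation control was lower, 1 acetylcholine receptor was higher and 3 choline genes were lower, as 3 were without IS replicate 4. Over the 35 pathway lists, 68 of 923 different genes tested were called, against 6.12% of all genes. In the fit of all 8 libraries, 10 lists had none.

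**Figure D4:**
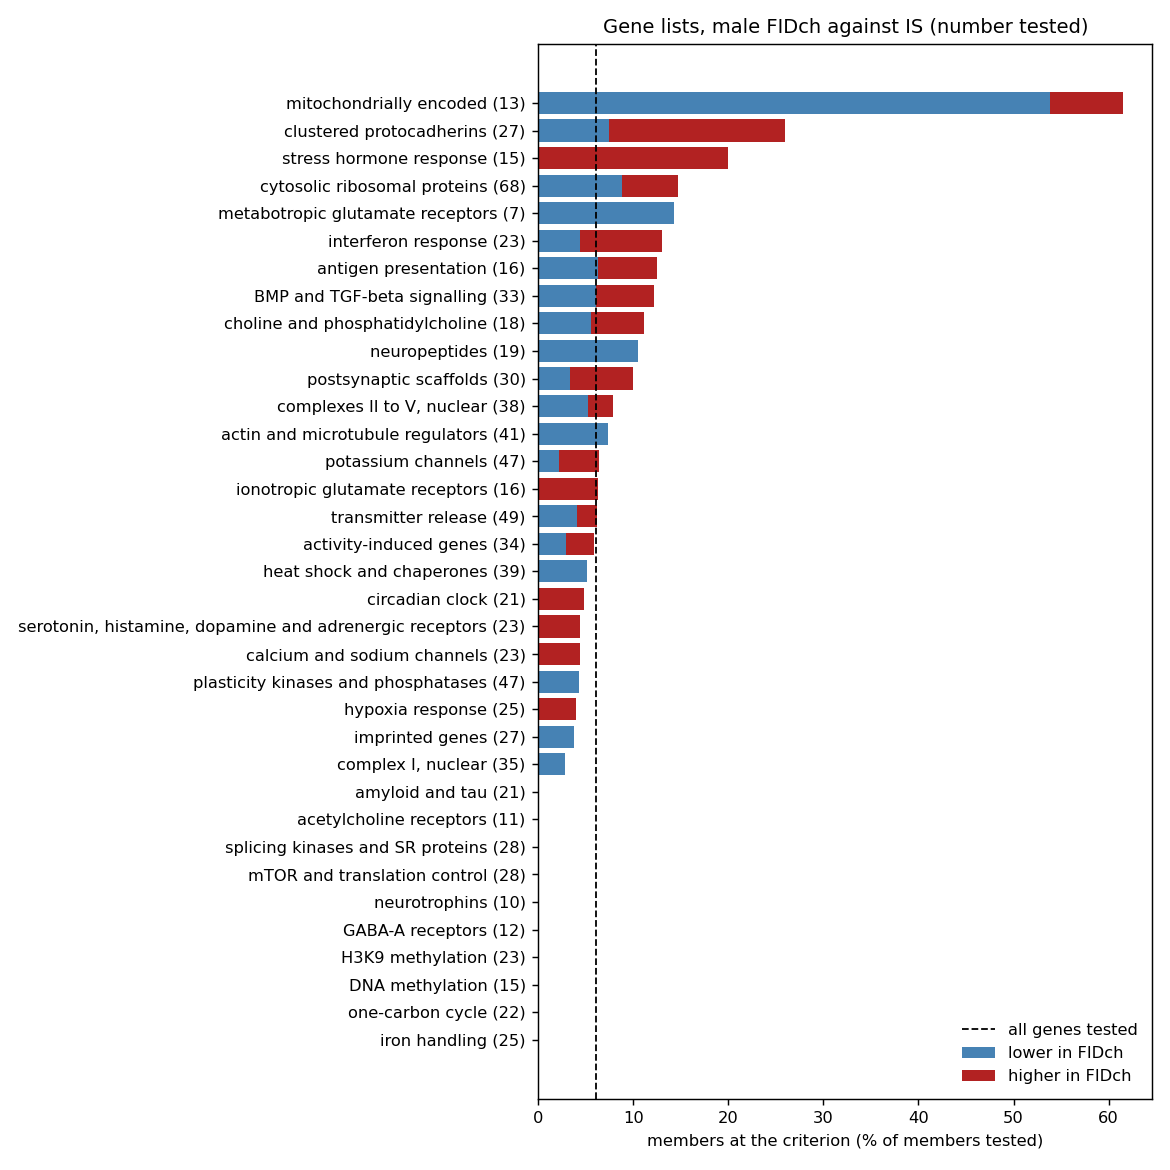
Share of each pathway list's tested members that met the criterion in male FIDch against IS, lower in blue and higher in red, with the number tested in brackets. The dashed line is the share among all genes tested, 6.12%, and the mitochondrially encoded genes, whose calls are not independent, are farthest above it at 61.5%.

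Outside the list of ependymal and motile cilia described above, markers of cell types gave at most 1 call per list. Cspg4, a proteoglycan of oligodendrocyte precursors and pericytes, stood at 28.6, 27.8, 31.0 and 27.2 CPM in IS and 38.5, 36.4, 31.0 and 38.5 CPM in FIDch (log2 fold change 0.33 ± 0.10, SE), where FIDch replicate 3 lay just above the highest IS rat. Pdgfrb, a receptor of pericytes, was higher by 0.27 and the oligodendrocyte gene Opalin by 0.31, and these lost the criterion in 4 and 5 of the 8 fits. Fmod, a matrix proteoglycan among the meningeal markers, was higher by 0.55. Calb1, a calcium buffer of dentate granule cells, stood at 109 to 126 CPM in IS and 93.4 to 106 CPM in FIDch (log2 fold change -0.22). Calb1 no longer met the criterion without IS replicate 1, FIDch replicate 2 or FIDch replicate 4, at -0.19 to -0.17. No astrocyte, microglia, excitatory neuron or interneuron marker was called with all 8 libraries, while without 1 library up to 1 astrocyte, 1 microglia, 1 excitatory neuron and 2 interneuron markers were.

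The same contrast in 4 FIDch and 4 IS females, sequenced as batch II, used none of these libraries. There the criterion was met by 1317 of 14662 genes (8.98%), 4.16% being higher and 4.82% lower, and 133 (0.907%) passed at an adjusted p under 0.05. Of the 838 genes called in males, 780 were tested in females and 276 of these (35.4%) had the same sign, against 42.0% of all 13308 genes tested in both. Leaving out any 1 of the 16 libraries, this share ran from 30.4 to 45.6%, and without both IS replicate 1 and FIDch replicate 2 of the males, chosen after seeing the data, it was 49.8%. In all, 119 genes were called in both sexes, which is 15.3% of those called in males and tested in females and 10.2% of those called in females and tested in males. They had the same sign in 30 cases and the opposite sign in 89. The Pearson correlation of the male and female log2 fold changes across all genes was -0.11, a description over genes that share their libraries. Of the 11 adjusted male genes tested in females, Rpl12 alone met the criterion there, and in the same direction (log2 fold change 0.34).

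**Figure D5:**
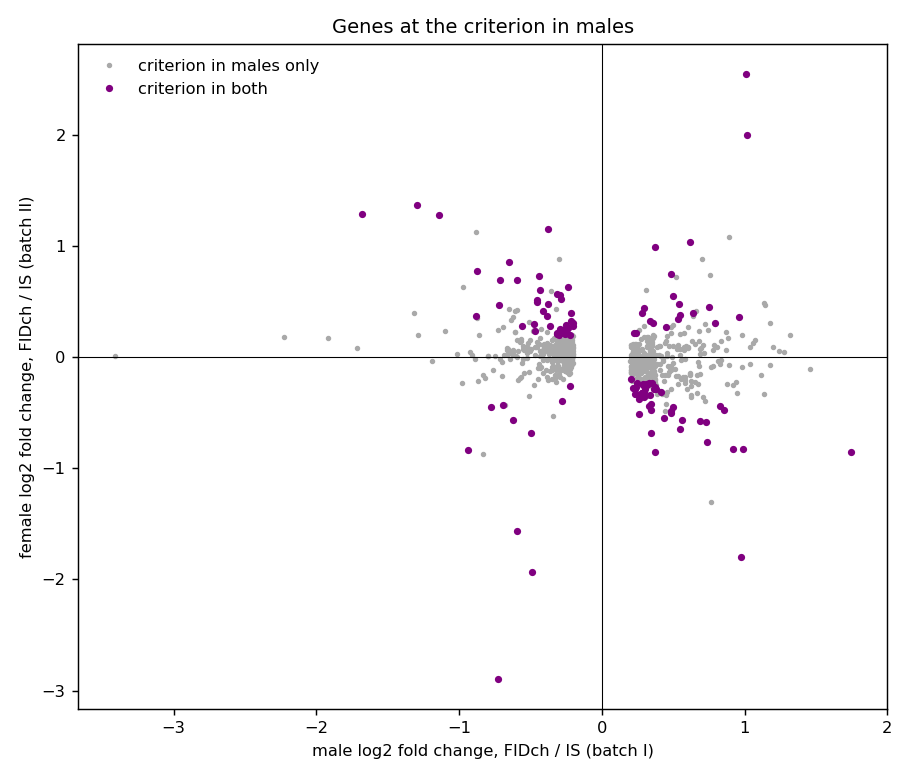
Log2 fold change of FIDch against IS in females (batch II, vertical) against that in males (batch I, horizontal) for the 780 genes called in males and tested in females. Purple points, 119 genes called in both, lie in opposite quadrants in 89 cases.

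Among the 80 male genes with a symbol that are named here by rule, 77 were tested in females and 13 met the criterion there, 5 with the same sign and 8 with the opposite sign. Grm4 was lower in both, at 8.65 to 11.1 CPM in female IS and 5.97 to 7.52 CPM in female FIDch (log2 fold change -0.56). Clca1, Fmod, Rpl12 and Pcdhga1 were higher in both. Steap4, Rpl17, Ier5, Id3 and Calb1 were lower in males and higher in females, and Col7a1, Sgk1 and Chrd were higher in males and lower in females. The 13 mitochondrially encoded genes took 6.92 to 8.02% of the counts in female IS and 6.57 to 8.36% in female FIDch, so these groups overlapped.

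The difference between the male and female effects was itself tested in a fit of the 16 libraries. Of 15177 genes, 1957 (12.9%) passed the criterion for the difference, while 55 (0.362%) had an adjusted p under 0.05, 43 of them with a symbol. Fntb, the beta subunit of protein farnesyltransferase, fell in males and rose in females. It stood at 49.0, 40.8, 38.3 and 33.2 CPM in male IS and 28.4, 29.9, 24.3 and 25.1 CPM in male FIDch, and at 26.3 to 29.3 CPM in female IS and 37.0 to 53.6 CPM in female FIDch. The difference of the log2 fold changes was -1.30 ± 0.19 (SE), with an edgeR adjusted p of 0.0040. For Rpl30, the import factor gene Chchd4 and the desmosome gene Dsp, whose differences were -3.39, 1.24 and -2.72, the change lay in females and the male log2 fold changes of -0.39, 0.07 and 0.11 did not meet the criterion. Of the male genes with a symbol named above by rule, Steap4 (-2.43) and Id3 (-0.82) also differed between the sexes at an adjusted p under 0.05.

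Capns1, the small subunit of calpain proteases, had no count in any of the 4 FIDch males and 9 to 13 counts in each IS male, 1.36 to 1.73 CPM. Taking 3 counts over the 4 FIDch libraries together as the limit, it was at least 14.3-fold lower in FIDch. The ISch rats were at 0 to 0.125 CPM and the FID rats at 0.479 to 1.57 CPM. Capns1 was below the filter on low counts of the male fit and was tested only for the difference between the sexes (edgeR adjusted p 0.0040). In RefSeq it overlaps Cox7a1, a subunit of cytochrome c oxidase.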

How the data were processed

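RNA-seq of whole hippocampus was used, from 4 FIDch and 4 IS male rats (batch I) and, as a second set of samples, 4 FIDch and 4 IS females (batch II). Groups were taken from the diet and sex labels. The authors prepared libraries with the TruSeq RNA v2 kit, trimmed reads with Trimmomatic, aligned them with HISAT2 to Rnor_6.0 and deposited raw counts per Ensembl gene from featureCounts. How strand and reads with several matches were treated is not given in the sources used here. The male table holds 32883 entries, of which 2799 repeat another entry's symbol.

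Counts were fitted in R 4.3.3 with edgeR 4.0.16 (filterByExpr, TMM, glmQLFit and glmQLFTest), for FIDch and IS alone, and for the difference between the sexes in the 16 libraries of both. The criterion was that of the study. CPM values use TMM factors over the 16 male or 16 female libraries. Female totals were 19980501 to 26616318 counts. Gene overlaps came from RefSeq (GRCr8), which matched 12500 of the 13693 genes, and no positions are given because the build differs. Lists are described by their counts beside the share of all genes, and no test of a list was made. The comparison, the 35 pathway and 16 marker lists and the rules were chosen with earlier results of these data known.

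Genes are named by rule: symbols with an adjusted p under 0.05, the 10 highest and 10 lowest log2 fold changes without overlap at a mean of at least 1 CPM, up to 4 called members per list by p, and up to 5 genes with an adjusted difference between the sexes. Unnamed loci with an adjusted p, further list members, some called genes off the lists and genes called in both sexes were named beyond it, after their values were seen. On simulated male counts (13579 genes), 4.39% of unchanged genes met the criterion, as did 81.8% of 66 genes at a true log2 fold change of 0.5 and 95.2% of 63 at 1, while 43.9% and 88.9% reached an adjusted p under 0.05. Each simulated gene was drawn independently, without variation shared by the genes of a library. These shares therefore do not carry over to the real libraries, where single rats shifted many genes.

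Replicate numbers gave no clear pairing of the samples. The correlation of same-numbered FIDch and IS deviations was 0.26, 0.05, -0.20 and 0.03 in males and 0.003, 0.07, -0.02 and -0.18 in females. In males, IS replicates 1, 2 and 4 matched best the FIDch rat of the same number, and FIDch replicate 1 alone did so in return. In females, FIDch replicate 2 matched best the IS rat of the same number, and no IS rat did so. The alternatives were DESeq2 1.42.0, edgeR's likelihood ratio test, RLE size factors, library size alone, other filters, a fit of all 4 groups of one sex, a block for the replicate number, and each library left out in turn.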

Additional observations from a re-analysis of the deposited data

Results flagged for a closer look

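Over the named genes and the mitochondrial share, 240 groups of 4 rats were searched for a rat far from the other 3 by Dixon's criterion, and 19 passed it, where chance alone passes about 1 in 20. FIDch replicate 2 accounted for 8 of them. It was low for Mt-nd1 (4782 CPM), Mt-nd3 (269 CPM), Mt-nd6 (1066 CPM), Mt-co3 (6266 CPM), Mt-atp6 (6756 CPM) and Mt-atp8 (639 CPM), its mitochondrially encoded genes took 5.81% of the counts, and it was high for Ifi27 (86.9 CPM). This library also had the smallest total, and its name in the count table had another form than those of the other 7. Whether FIDch replicate 2 was prepared or sequenced apart is not given in the sources used here. The part of its depth in these values was not tested, and without this library the mitochondrially encoded genes had 4 members lower and 1 higher.

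Other rats that stood apart in their group were FIDch replicate 1 for Rps9 (2.02 CPM) and Sardh (21.8 CPM), FIDch replicate 3 for Grin2d (14.5 CPM), Cfap43 (13.1 CPM) and AABR07015006.1 (29.8 CPM), and FIDch replicate 4 for Cox6b1 (39.0 CPM) and Htr1b (18.1 CPM). Among the controls, IS replicate 2 was low for Tmem212 (0.863 CPM), and IS replicate 4 was low for Mt-nd4 (311 CPM), Mt-nd6 (1216 CPM) and Homer3 (74.5 CPM).

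The male effect differed from the female effect at an adjusted p under 0.05 in edgeR's test for 10 of the genes named by rule, counting the unnamed loci. The male minus female difference of the log2 fold changes was -3.39 for Rpl30, 1.24 for Chchd4, -2.72 for Dsp, -1.30 for Fntb, -2.43 for Steap4 and -0.82 for Id3. It was -1.49 for LOC100365810, -1.81 for LOC100360841 and 1.56 for AC135409.1. For Capns1 the fitted difference was -7.70, a value that depends on the prior count because all FIDch males had 0 counts. Sex and sequencing batch coincide, so a difference between sexes and one between batches cannot be told apart.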

How the results depend on the processing

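Numbers of genes at the criterion stayed within 1.5 times their main values in all alternatives, apart from the 1267 male genes without IS replicate 3. Numbers with an adjusted p under 0.05 moved more. For male FIDch against IS, 18 genes became 50 with all genes with at least 1 count, 46 with DESeq2, 76 with the likelihood ratio test, 52 with 4 groups in one fit, and 37 without both IS replicate 1 and FIDch replicate 2, an alternative chosen after seeing the data. For females, 133 became 392 with DESeq2, 333 with the likelihood ratio test and 242 with 4 groups in one fit. For the difference between the sexes, 55 became 250 with DESeq2 and 268 with the likelihood ratio test. With the replicate block, although the numbers gave no clear pairing, these counts were 11 in males, 30 in females and 14 for the difference. Leaving out 1 library gave 4 to 25 genes in males, 28 to 319 in females and 26 to 99 for the difference at an adjusted p under 0.05, and 681 to 1267, 1108 to 1528 and 1618 to 2402 at the criterion. The cause of these shifts was not tested. Of 91 genes named for males by rule, counting the unnamed loci, 57 kept the criterion in each fit without 1 library, 34 lost it in at least 1, and none reversed. The smallest library, FIDch replicate 2, limits what can be seen of genes near 0.853 CPM.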
